A study of Homo sapiens with 4 samples.

Results

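Androgens, the male sex hormones, switch on a set of genes in the luminal (secretory) cells of the prostate. KLK3, the gene of prostate-specific antigen, is the best known of them. The genes described here are 32 others of that set, taken by symbol from the 33538 genes of the matrices because androgens are known to induce them in LNCaP cells, a rule that uses no measured level. They include the membrane protease TMPRSS2, the steroid receptor cochaperone FKBP5, the transporters SLC45A3 and ABCC4, the fatty acid enzyme ACSL3 and the sorbitol enzyme SORD. The androgen-induced kallikreins KLK2 and KLK3 are not members and serve only as a reference.

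To ask how these genes behave under short treatment and in acquired resistance, their levels were taken from single-cell RNA sequencing (scRNA-seq). It covered LNCaP, a line grown from a lymph node metastasis of a human prostate cancer, and cells derived from it. The 4 groups were parental LNCaP cells in the solvent DMSO (0.1%, 48 h), the same cells after 48 h in 10 µM enzalutamide (ENZ), called LNCaP-ENZ48, and the ENZ-resistant lines RES-A and RES-B. ENZ is an antiandrogen, a drug that keeps the hormone from switching on its genes. Both lines came from LNCaP cells kept for months under an antiandrogen, ENZ at stepwise higher doses for RES-A and the related compound RD-162 for RES-B. Both were kept in 10 µM ENZ, each is a single derived line, and no resistant cells without the drug are compared here, so resistance and the presence of the drug cannot be told apart. Each group was 1 library. Differences between groups therefore lack any check by replicates, no test was possible, and every interval below covers counting error only.

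The filtered libraries held 1782 to 4569 cells and 50208831 to 60838227 unique molecular identifiers (UMIs, each standing for 1 captured RNA molecule). The median cell of LNCaP had 27079.5 UMIs, against 12138 to 13676 in the other libraries. Any pair of libraries shared 2 to 9 cell barcodes. All 5 luminal markers looked for (KRT8, KRT18, KLK3, FOLH1 and TMPRSS2) were detected in each library, with a summed level of 1100 to 1770 CPM (UMIs scaled to a common library total). KLK3, however, had only 2 UMIs in RES-A. The basal markers KRT5 and TP63, the immune markers PTPRC and CD3E and the fibroblast marker COL1A2 were at 0 UMIs in all 4 libraries. The summed level of the other cell types' lists was 0 to 0.299 CPM for the 3 basal markers, 1.47 to 3.21 CPM for the 3 fibroblast markers, 0.285 to 1.01 CPM for the 3 immune markers and 0.115 to 1.04 CPM for the 2 endothelial markers. The share of cells called G1 was 84.3% in LNCaP-ENZ48, 75.9% in RES-B, 74.1% in LNCaP and 69.7% in RES-A.

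In a summed library, fewer cells that express a gene and less RNA per cell give the same level and cannot be told apart. All 32 members together made up 1200 CPM in LNCaP (1190 to 1209, exact Poisson 95% interval), 740.3 CPM in LNCaP-ENZ48, 608 CPM in RES-B and 588.5 CPM in RES-A. SORD alone gave 18.3% of the sum in LNCaP. The members' sum was thus highest in untreated LNCaP and lowest in RES-A. The order of the resistant lines rested on the member TPD52. When TPD52 was left out, RES-B became the lowest library at 513.0 CPM (506.9 to 519.1). RES-A then stood above it, at 526.3 CPM (520.4 to 532.3), and LNCaP stayed highest. KLK2 plus KLK3 gave 1037 CPM in LNCaP, 122 CPM in LNCaP-ENZ48, 54.0 CPM in RES-B and 7 UMIs (0.122 CPM) in RES-A, so the kallikreins spanned a far wider range than the sum of the members. Several members differed more than their sum, as the plot of levels by role shows.

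**Figure D1:**
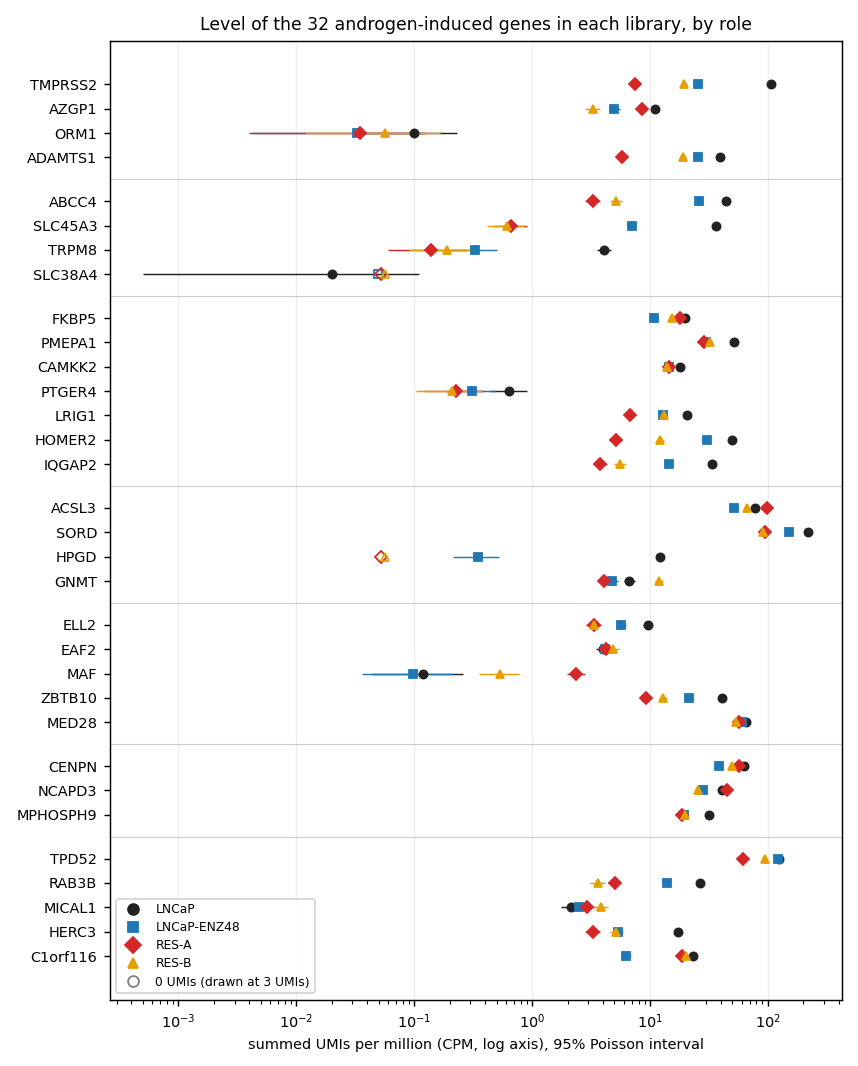
Level of each of the 32 members (rows, grouped by role) in the 4 libraries, in CPM on a log axis with exact Poisson 95% intervals; open symbols mark 0 UMIs and are drawn at the floor of 3 UMIs. LNCaP (black) lies rightmost for TMPRSS2, SLC45A3, ABCC4 and HPGD, whereas the black, red and orange symbols of FKBP5, CENPN and C1orf116 lie close together, to the right of the blue symbol of LNCaP-ENZ48.

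Of the 32 members, 24 had a mean of at least 5 CPM over the 4 libraries. Members high in a single library can pass this minimum through that library, so the counts that follow describe the 24 and are no support on their own. Against LNCaP, 6 of the 24 were at least 2-fold lower in LNCaP-ENZ48 (0.636% of all 9585 genes that passed) and 0 were at least 2-fold higher (0.396% of all genes). In RES-A 12 of the 24 were at least 2-fold lower (4.89% of all genes) and 0 higher (4.66%). The same counts, 12 lower (3.60% of all genes) and 0 higher (5.49%), were found in RES-B. The comparisons share the LNCaP library, so a chance high level there would lower all of them. The median log2 ratio of the 24 was -0.73 after 48 h of ENZ, -1.11 in RES-A and -0.86 in RES-B, beside -0.08, 0.01 and 0.11 over all genes. In 20 of the 24 the counting interval lay below 0 in all 3 comparisons (13.2% of all genes), and 21 were highest in LNCaP (23.8%). The plot of ratios to LNCaP shows them in the order of RES-A.

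**Figure D2:**
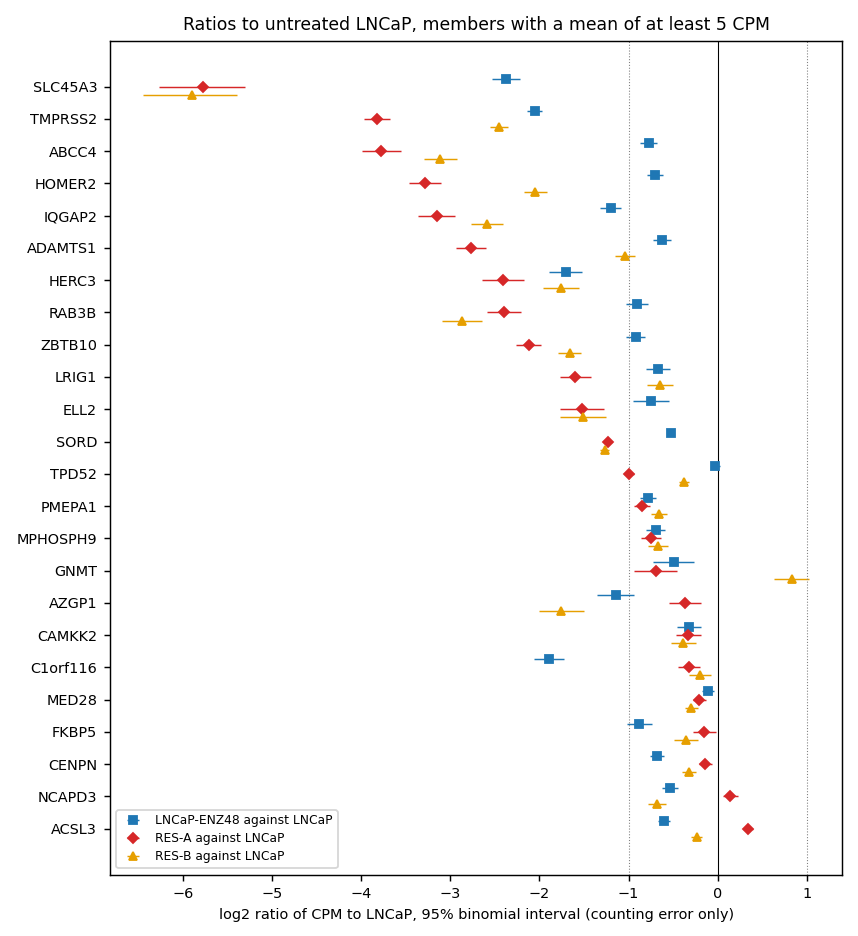
Log2 ratio of CPM to untreated LNCaP for the 24 members with a mean of at least 5 CPM, in LNCaP-ENZ48 (blue squares), RES-A (red diamonds) and RES-B (orange triangles), with exact conditional binomial 95% intervals; dotted lines mark 2-fold. SLC45A3 is lowest in RES-A and RES-B at -5.77 and -5.90, and the points of RES-A to the right of 0 are NCAPD3 and ACSL3.

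The resistant lines were also set against LNCaP-ENZ48, which holds the parental cells in the same drug. Of the 24 members, 8 were at least 2-fold lower in RES-A than in LNCaP-ENZ48 (4.01% of all genes) and 1 was higher (4.99%). In RES-B 5 were lower (3.07%) and 2 higher (6.31%). ACSL3, C1orf116, CENPN and FKBP5 (4 of 24) lay below LNCaP after 48 h of ENZ and above LNCaP-ENZ48 in both resistant lines. This course was taken by 19.4% of all genes, so it does not set the members apart. A further 11 lay below LNCaP after 48 h and lower again in both resistant lines (5.65% of all genes), among them TMPRSS2, SLC45A3 and ABCC4. AZGP1 and NCAPD3 (2 of 24, against 1.69% of all genes) lay above LNCaP-ENZ48 in RES-A and below it in RES-B. When only G1 cells were compared, RES-B lay at 0.01 against LNCaP-ENZ48 for NCAPD3 and at -0.01 for CENPN. The median of all genes was 0.20 in RES-B against LNCaP-ENZ48 and -0.0026 with TMM scaling, which lowers every ratio of this pair by 0.20. The same scaling puts 10 members, not 8, at least 2-fold lower in RES-A than in LNCaP-ENZ48. It lowers every ratio of that pair too, and the share of all genes was not counted under it. ACSL3, C1orf116, CENPN and FKBP5 stayed above LNCaP-ENZ48 in RES-B under TMM scaling, at 0.17, 1.49, 0.16 and 0.32. Between the resistant lines, 4 members were at least 2-fold above RES-A in RES-B (3.91% of all genes) and 1 was lower (2.12%).

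The hormone acts through a palindromic response element in DNA, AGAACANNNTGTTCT, most copies of which are known to lie far from the genes they serve. Since members differed in pattern, the 250 bases before their start sites were searched for it, in RefSeq promoter sequences (GRCh38.p14) that hold 25 of the 32 members in 43 windows. The element reads the same on both strands, so a single search covers both. No member window held an exact copy, which 0.003% of all 35116 windows did. Of the 43 windows 4 held a copy with at most 3 mismatches in the 12 fixed letters (9.30%, against 9.17% of all windows), in TRPM8, FKBP5, HPGD and PMEPA1. Either arm alone, AGAACA or TGTTCT, stood in 5 windows (11.6%, against 12.4% of all). These shares are near those of all promoters. The closest copy was the 15 bases TGAAGAATGTGTTCT before a start site of PMEPA1, with 2 mismatches, and that of HPGD was AAAACACAATGATAT, with 3.

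Windows of 4 members are printed because their levels differed in the resistant lines: SLC45A3 and TRPM8 were far below LNCaP, whereas FKBP5 and C1orf116 were within 2-fold of it. Each is given on the strand of the gene, with the bases closest to the element in capitals. These have 3 mismatches in TRPM8 and FKBP5, 5 in C1orf116 and 6 in SLC45A3, so that the last pair hold no copy close to it. TRPM8 and FKBP5 had further windows with more mismatches, and the closest is printed. C1orf116 and SLC45A3 had no further window, so the pairs were not searched alike.
TRPM8, chr2:233917123-233917372, plus strand: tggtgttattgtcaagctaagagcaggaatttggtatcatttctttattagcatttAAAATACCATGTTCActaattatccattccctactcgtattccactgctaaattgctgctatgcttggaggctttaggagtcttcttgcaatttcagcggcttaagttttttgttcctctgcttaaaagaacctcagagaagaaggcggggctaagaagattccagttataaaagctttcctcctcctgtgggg
SLC45A3, chr1:205680510-205680759, minus strand: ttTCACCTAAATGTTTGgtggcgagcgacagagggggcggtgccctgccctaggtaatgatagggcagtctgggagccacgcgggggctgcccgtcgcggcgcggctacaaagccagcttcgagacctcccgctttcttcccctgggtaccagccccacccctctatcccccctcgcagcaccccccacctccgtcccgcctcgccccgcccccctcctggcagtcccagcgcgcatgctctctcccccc
FKBP5, chr6:35728584-35728833, minus strand: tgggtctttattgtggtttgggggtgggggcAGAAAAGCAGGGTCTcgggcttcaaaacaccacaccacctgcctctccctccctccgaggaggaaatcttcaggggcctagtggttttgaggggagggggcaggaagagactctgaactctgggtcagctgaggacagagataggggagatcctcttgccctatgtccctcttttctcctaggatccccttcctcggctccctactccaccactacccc
C1orf116, chr1:207032757-207033006, minus strand: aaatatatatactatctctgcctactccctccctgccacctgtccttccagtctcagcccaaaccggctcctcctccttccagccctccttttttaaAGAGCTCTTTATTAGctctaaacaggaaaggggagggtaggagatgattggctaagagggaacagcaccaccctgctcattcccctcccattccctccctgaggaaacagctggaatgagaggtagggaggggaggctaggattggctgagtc

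Among the secreted and surface proteins, TMPRSS2 was the member lowered most by 48 h of ENZ apart from SLC45A3 and the low-level TRPM8 and HPGD. TMPRSS2 (chromosome 21, 41464300 to 41531116, minus strand) is a protease of the luminal cell surface whose promoter is often fused to ETS family genes in prostate cancer. Its level was 106 CPM in LNCaP (103 to 109), 25.5 CPM in LNCaP-ENZ48, 19.3 CPM in RES-B and 7.50 CPM in RES-A. The 4 intervals do not overlap, and the log2 ratio to LNCaP was -2.06 (-2.14 to -1.97) after 48 h, -3.82 (-3.97 to -3.68) in RES-A and -2.46 (-2.55 to -2.36) in RES-B. ADAMTS1, a secreted metalloprotease, stood at 39.3 CPM in LNCaP, 25.5 CPM in LNCaP-ENZ48, 19.2 CPM in RES-B and 5.77 CPM in RES-A. Both genes were at least 2-fold above RES-A in RES-B, by 1.37 (1.20 to 1.53) and 1.73 (1.55 to 1.91) on the log2 scale. Against LNCaP, ADAMTS1 in RES-B was close to the 2-fold limit, at -1.04, and at -0.92 when each cell was given the same weight.

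AZGP1, the secreted zinc-alpha-2-glycoprotein, took another course. It was 2-fold lower or more after 48 h and in RES-B, with log2 ratios to LNCaP of -1.14 and -1.75, but stood at 8.56 CPM in RES-A against 11.0 CPM in LNCaP. It was the only one of the 24 members at least 2-fold lower in RES-B than in RES-A (-1.39, -1.65 to -1.13). The call after 48 h is narrow, at -0.99 when each cell was given the same weight. ORM1, an acute-phase plasma protein, had 2 to 5 UMIs in each library, too few to tell the libraries apart. The counts of AZGP1 and ORM1 could lose reads to the near copies AZGP1P1 and ORM2, which makes their levels uncertain.

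Of the 24 members, the transporter SLC45A3 had the lowest ratio to LNCaP in each of the 3 comparisons. SLC45A3, or prostein (chromosome 1, 205657851 to 205680509, minus strand), is a membrane transporter used as a marker of prostate tissue. It stood at 36.2 CPM in LNCaP, 6.99 CPM in LNCaP-ENZ48, 0.609 CPM in RES-B (32 UMIs) and 0.663 CPM in RES-A (38 UMIs). Both resistant lines lay about equally far below LNCaP, RES-A with a log2 ratio of -5.77 (-6.28 to -5.31) and RES-B with -5.90 (-6.45 to -5.39), and the interval of their difference held 0 (-0.85 to 0.59). ABCC4, an efflux pump of cyclic nucleotides and prostaglandins, was 44.6 CPM in LNCaP, 26.1 CPM in LNCaP-ENZ48, 5.16 CPM in RES-B and 3.26 CPM in RES-A. Its ratio after 48 h was modest (-0.77) beside those of RES-A (-3.77) and RES-B (-3.11), so most of the difference was found in the resistant lines. TRPM8, the cold-sensing cation channel, did not pass the 5 CPM minimum but was counted at 206 UMIs in LNCaP against 20, 8 and 10 in LNCaP-ENZ48, RES-A and RES-B, log2 ratios of -3.64, -4.88 and -4.43. SLC38A4, an amino acid transporter, had 1 UMI in LNCaP and 0 elsewhere.

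HPGD (chromosome 4, 174490175 to 174523154, minus strand), which inactivates prostaglandins, had the widest gap between libraries of the 32. It was 12.2 CPM in LNCaP (613 UMIs) but 0.345 CPM in LNCaP-ENZ48 (21 UMIs), a log2 ratio of -5.14 (-5.85 to -4.52). Not a single UMI was counted in RES-A or RES-B, which makes it at least 233-fold (RES-A) and at least 214-fold (RES-B) lower than in LNCaP, with 0 set to the floor of 3 UMIs per library. The mean of HPGD fell short of 5 CPM, so it is not among the 24. PTGER4, a receptor of prostaglandin E2, was low throughout, with 32 UMIs in LNCaP and 11 to 19 in the other libraries.

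The other metabolic enzymes did not follow HPGD. SORD, which turns sorbitol into fructose, had the most UMIs of the members in LNCaP and stood at 219.7 CPM there, 152 CPM in LNCaP-ENZ48, 91.2 CPM in RES-B and 93.8 CPM in RES-A. RES-A, with a log2 ratio of -1.23, and RES-B, with -1.27, could not be told from each other by counting error (-0.10 to 0.02). Reads of SORD could be lost to its near copy SORD2P, so its level is uncertain while its ratios share that loss. ACSL3, which activates long-chain fatty acids, was 78.0 CPM in LNCaP and 51.3 CPM after 48 h, 66.2 CPM in RES-B and 98.8 CPM in RES-A. It was above LNCaP in RES-A, by 0.34 (0.28 to 0.40), and below it in RES-B (-0.24). GNMT, which methylates glycine, was 6.67 CPM in LNCaP, 4.73 CPM in LNCaP-ENZ48, 11.9 CPM in RES-B and 4.12 CPM in RES-A. RES-B thus held more GNMT than any other library, at 2.88 times the level of RES-A.

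Of the 7 signalling members, the scaffold proteins HOMER2 and IQGAP2 lay furthest below LNCaP in the resistant lines. HOMER2 was 50.1 CPM in LNCaP, 30.7 CPM in LNCaP-ENZ48, 12.1 CPM in RES-B and 5.15 CPM in RES-A, and IQGAP2 33.4, 14.6, 5.55 and 3.77 CPM in the same order. Each was thus lower after 48 h and lower again in both resistant lines, with RES-A lowest. LRIG1, which restrains growth factor receptors of the EGFR family, was 20.5 CPM in LNCaP and 6.77 CPM in RES-A, while LNCaP-ENZ48 and RES-B could not be told apart at 12.9 and 13.1 CPM. PMEPA1, which dampens TGF-beta signalling, was 51.3 CPM in LNCaP and 28.5 to 32.5 CPM in the 3 libraries under the drug. CAMKK2, a kinase that activates AMPK, was 18.1 CPM in LNCaP and 13.9 to 14.5 CPM in the others. In PMEPA1 and CAMKK2 the resistant lines stood close to the parental cells after 48 h in the drug.

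FKBP5, a partner of HSP90 in steroid receptor complexes and a common readout of steroid hormones, showed a different order. It was 19.8 CPM in LNCaP, 10.8 CPM in LNCaP-ENZ48, 15.5 CPM in RES-B and 17.9 CPM in RES-A. Both resistant lines lay above LNCaP-ENZ48, RES-A by 0.73 (0.59 to 0.87) and RES-B by 0.53 (0.38 to 0.68) on the log2 scale. Against LNCaP, RES-A was at -0.15 (-0.28 to -0.02) and RES-B at -0.35 (-0.49 to -0.22). C1orf116, also known as the specifically androgen-regulated gene, was also lowest in LNCaP-ENZ48, with a larger span, and its resistant lines could not be told from each other. It was 23.3 CPM in LNCaP, 6.28 CPM in LNCaP-ENZ48, 20.3 CPM in RES-B and 18.7 CPM in RES-A. The log2 ratio after 48 h was -1.89 (-2.06 to -1.73), and RES-A lay 2.98-fold and RES-B 3.24-fold above LNCaP-ENZ48. C1orf116 was thus among the 6 members at least 2-fold lower at 48 h, whereas in RES-A and RES-B it was within 2-fold of LNCaP.

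Among the members that act in transcription, ZBTB10, a zinc finger protein, was 40.6 CPM in LNCaP, 21.4 CPM in LNCaP-ENZ48, 12.8 CPM in RES-B and 9.33 CPM in RES-A. The elongation factor ELL2 was 9.54 CPM in LNCaP, 5.69 CPM in LNCaP-ENZ48, 3.35 CPM in RES-B and 3.33 CPM in RES-A. Its partner EAF2 had 201 to 254 UMIs in each of the 4 libraries, with every ratio to LNCaP within counting error. MED28, a Mediator subunit, was 65.6 CPM in LNCaP, 60.8 CPM in LNCaP-ENZ48, 53.3 CPM in RES-B and 56.9 CPM in RES-A, a narrow range. MAF, a leucine zipper transcription factor, went the other way: it had 6 UMIs in LNCaP and 6 in LNCaP-ENZ48 but 136 in RES-A (2.37 CPM) and 28 in RES-B (0.533 CPM). The log2 ratio of MAF to LNCaP was 4.31 (3.15 to 5.78) in RES-A and 2.16 (0.86 to 3.72) in RES-B, at levels below the 5 CPM minimum.

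The members with roles in cell division are CENPN of the inner kinetochore, the condensin II subunit NCAPD3 and the centrosomal protein MPHOSPH9. CENPN was 62.2 CPM in LNCaP, 38.7 CPM in LNCaP-ENZ48, 49.8 CPM in RES-B and 56.6 CPM in RES-A. NCAPD3 was 41.2, 28.4, 25.6 and 45.4 CPM in the same order, so that RES-A lay above LNCaP (0.14, 0.06 to 0.23) and RES-B below it (-0.68). MPHOSPH9 was 31.7 CPM in LNCaP and 18.9 to 19.95 CPM elsewhere. The share of G1 cells differed between the libraries, from 69.7% in RES-A to 84.3% in LNCaP-ENZ48, and its part in these levels was not tested. In G1 cells alone the log2 ratio of NCAPD3 to LNCaP was 0.49 in RES-A, -0.34 in RES-B and -0.35 in LNCaP-ENZ48. Over all cells these were 0.14, -0.68 and -0.54. CENPN in G1 cells was at -0.44, -0.76 and -0.74 in the same order, against -0.14, -0.32 and -0.69 over all cells. With every cell given the same weight, CENPN in RES-A lay at 0.04 against LNCaP.

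Of the trafficking members, RAB3B, a small GTPase of exocytosis, was 26.3 CPM in LNCaP, 14.1 CPM in LNCaP-ENZ48, 3.61 CPM in RES-B and 5.01 CPM in RES-A. HERC3, a ubiquitin ligase, was 17.4 CPM in LNCaP, 5.33 CPM in LNCaP-ENZ48, 5.14 CPM in RES-B and 3.28 CPM in RES-A. HERC3 thus reached in 48 h the level it had in RES-B (difference -0.05, -0.29 to 0.19), whereas RAB3B was lower again in both resistant lines. TPD52, a vesicle protein, was 124 CPM in LNCaP, 122 CPM in LNCaP-ENZ48, 95.2 CPM in RES-B and 62.1 CPM in RES-A. It was the only one of the 24 whose interval held 0 after 48 h (-0.08 to 0.02). In RES-A it sat at -0.99, next to the 2-fold limit, and passed that limit in 5 of the alternative settings. MICAL1, which oxidises actin, was low at 2.13 to 3.82 CPM.

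Because resistant lines can gain or lose parts of chromosomes, each member was set beside its expressed neighbours, up to 25 protein-coding genes on each side, whose median log2 ratio was taken relative to all 9115 such genes. The neighbours of HOMER2 lay at -0.61 in RES-A and -0.45 in RES-B, those of SORD on the same chromosome at -0.40 and -0.38, those of NCAPD3 at -0.52 and -0.42 and those of ABCC4 at -0.44 in RES-A. Around GNMT the median was 0.67 in RES-B, beside its own log2 ratio of 0.83. TMPRSS2 and ADAMTS1 lay below LNCaP in both resistant lines, ADAMTS1 in RES-B with a log2 ratio of only -1.04. Their neighbours on chromosome 21 lay above LNCaP, at 0.48 and 0.49 in RES-A and 0.38 and 0.40 in RES-B. The neighbours of SLC45A3 were at 0.09 and 0.37. For RES-B against LNCaP-ENZ48, the neighbours of ACSL3, C1orf116, CENPN and FKBP5 lay at 0.16, 0.50, 0.24 and 0.26. For RES-A against LNCaP-ENZ48 they lay at 0.16, 0.23, 0.30 and -0.06. After 48 h no neighbourhood of the 32 lay further than 0.11 from all genes. Copy number was not measured, and its part in these ratios was not tested.

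**Figure D3:**
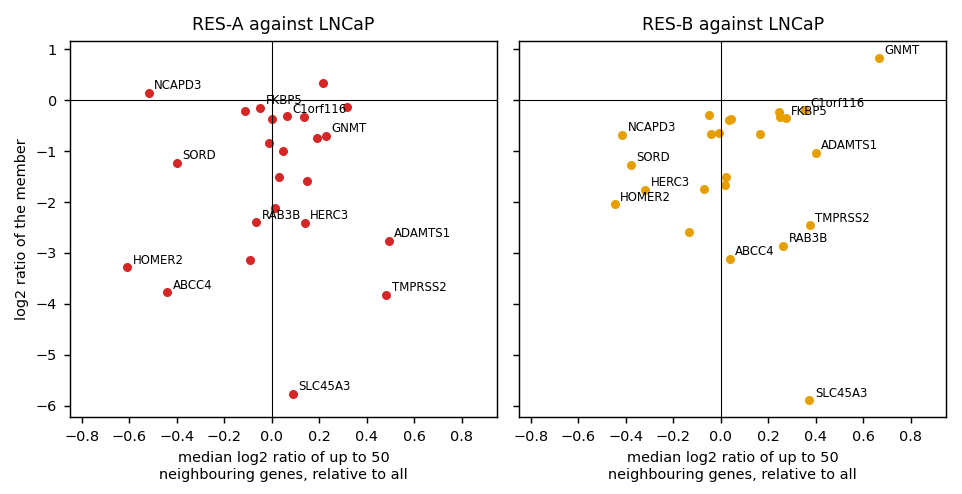
Log2 ratio to LNCaP of each of the 24 members (vertical axis) against the median log2 ratio of its neighbouring expressed genes relative to all genes (horizontal axis), in RES-A (left) and RES-B (right). SORD and HOMER2 lie left of 0, with neighbours also below LNCaP, whereas TMPRSS2, ADAMTS1 and, in RES-B, SLC45A3 lie in the lower right, below neighbours that are above LNCaP.

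The members were next set beside 58 other genes of the androgen response, of which 46 passed the minimum. Of these 6 were at least 2-fold lower than LNCaP after 48 h (0.636% of all genes) and 0 higher (0.396%). In RES-A 14 were lower (4.89%) and 0 higher (4.66%), and in RES-B 12 were lower (3.60%) and 1 higher (5.49%). The median log2 ratio of the 46 was -0.30 after 48 h, -0.55 in RES-A and 0.14 in RES-B, beside -0.73, -1.11 and -0.86 for the members. Both medians thus lay below 0 after 48 h and in RES-A, while in RES-B that of the other androgen response genes was near the 0.11 of all genes. The kinase STK39 (-1.40) and the pyrophosphate transporter ANKH (-1.36) were lowest of the 46 after 48 h. In RES-A it was ALDH1A3, which makes retinoic acid, at -6.65 and the hydrolase ABHD2 at -3.71. In RES-B ALDH1A3 stood at -2.43 and TNFAIP8, an apoptosis regulator, at -2.39, whereas the transcriptional regulator TSC22D1 was at 1.22. RES-B exceeded RES-A at least 2-fold in 11 of the 46 (3.91% of all genes) and was lower in 1 (2.12%). ALDH1A3 had the highest of these ratios, at 4.23 on the log2 scale, from only 11 UMIs in RES-A. ABHD2 was 3.23 higher in RES-B and NDRG1, a stress-induced gene, 2.31.

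To see whether the members varied together from cell to cell, each cell was thinned to 5000 UMIs. No cell type that lacks these genes was sequenced, so the share of cells with a UMI that free RNA could give is unknown. TMPRSS2 was then seen in 34.8% of LNCaP cells, 11.6% of LNCaP-ENZ48 cells, 3.68% of RES-A cells and 9.60% of RES-B cells (75.9%, 28.2%, 8.89% and 20.9% before thinning). HPGD was seen in 5.89% of LNCaP cells and 0.209% of LNCaP-ENZ48 cells, and 0 of 4569 RES-A cells and 0 of 4061 RES-B cells allow shares of up to 0.0657% and 0.0739%, which limits cells with an HPGD UMI and not cells that express the gene. MAF was seen in 62 of 4569 RES-A cells (1.36%) and in 2 of 1782 LNCaP cells. Summed over the 20 members with at least 0.05 UMIs per thinned cell, the median cell held 5 UMIs in LNCaP and 3 in each other library, and 11 LNCaP cells held none.

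Correlations among these 20 members were weak in every library. They are Pearson correlations of log-scaled UMIs across cells of 1 library, which share that library, and are given as a description. The median of the 190 pairs was 0.0098 in the 1782 LNCaP cells, 0.0038 after ENZ, -0.0010 in RES-A and -0.0004 in RES-B, beside 0.0012, 0.0010, 0.0005 and 0.0008 among 300 other genes of the same range of levels. In LNCaP 3 pairs exceeded 0.1 (1.58%, against 0.234% of pairs of other genes). All 3 held TMPRSS2, with SLC45A3 at 0.165, PMEPA1 at 0.124 and ABCC4 at 0.103. In LNCaP-ENZ48, where a smaller share of cells held a UMI of these genes, the same 3 pairs lay between 0.0067 and 0.0174. In RES-A and RES-B SLC45A3 was seen in 15 and 13 cells and ABCC4 in 66 and 98, too few to read their pairs. CENPN and NCAPD3 formed the other pattern, with 0.0805 in LNCaP, 0.0912 after ENZ, 0.0737 in RES-A and 0.104 in RES-B. Without thinning, 40 of the 190 pairs exceeded 0.1 in LNCaP (21.1%, against 1.74%), so the number of pairs depends on depth.

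With the kallikreins the values were also highest in LNCaP, where a thinned cell held 5.18 kallikrein UMIs on average, against 0.677 in LNCaP-ENZ48 and 0.282 in RES-B. The summed members correlated with KLK2 plus KLK3 at 0.167 in LNCaP, 0.0151 in LNCaP-ENZ48 and 0.0451 in RES-B. In RES-A 5 cells held a kallikrein UMI, so its value (-0.0379) says nothing. TMPRSS2 led in LNCaP at 0.256, followed by PMEPA1 at 0.139, ABCC4 at 0.110 and CAMKK2 at 0.101, where 95% of the 300 other genes lay below 0.0456. TMPRSS2 was at 0.0629 in LNCaP-ENZ48, where ABCC4 was highest at 0.0901, and at 0.0566 in RES-B. The highest of the 300 other genes stood at 0.143 in LNCaP, 0.0838 in LNCaP-ENZ48 and 0.115 in RES-B. Only TMPRSS2 in LNCaP and ABCC4 in LNCaP-ENZ48 lay above these. SLC45A3, although paired with TMPRSS2, was at 0.0317 in LNCaP, and NCAPD3 was lowest at -0.0916.

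**Figure D4:**
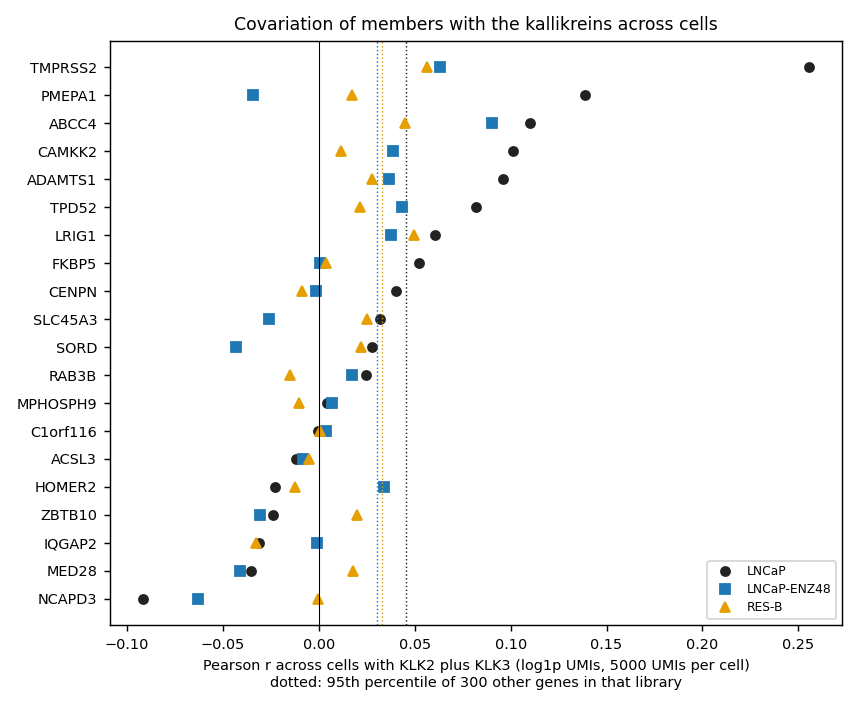
Pearson correlation across cells of each of 20 members (rows) with the summed UMIs of KLK2 and KLK3, in LNCaP (black circles), LNCaP-ENZ48 (blue squares) and RES-B (orange triangles), with cells thinned to 5000 UMIs; dotted lines mark the 95th percentile of 300 other genes in each library. TMPRSS2 in LNCaP stands apart at 0.256, and NCAPD3 is lowest in LNCaP and LNCaP-ENZ48.

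To express these links as levels, the cells were divided by whether they held a kallikrein UMI after thinning, a comparison added once the correlations had been seen. In LNCaP 1364 cells held one and 418 did not. TMPRSS2 stood at 119.9 CPM in the former and 59.3 CPM in the latter, a log2 difference of 1.02 (0.74 to 1.30). PMEPA1 was 55.4 against 30.6 CPM in LNCaP but 21.3 against 28.4 CPM in LNCaP-ENZ48, where its interval lay below 0. In LNCaP LRIG1 was 23.0 against 13.4 CPM and TPD52 129.8 against 97.6 CPM. Of the 20 members 7 had in LNCaP an interval above 0 (3.67% of the 300 other genes), and MED28 alone had one below 0 (9.33%). In LNCaP-ENZ48 6 were above 0 (5.67% of other genes) and 5 below (9.67%), and in RES-B 3 were above (5.00%) and 0 below (3.67%). TMPRSS2 and ADAMTS1 were above 0 in all 3 of these libraries. TMPRSS2 stood at 31.5 against 23.8 CPM in LNCaP-ENZ48 and at 27.7 against 19.2 CPM in RES-B. For ADAMTS1 the intervals began near 0, at 0.13 in LNCaP, 0.029 in LNCaP-ENZ48 and 0.088 in RES-B. Its variance across cells was 1.56, 1.53 and 1.65 times its mean in the same order, a spread that these intervals leave out.

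The members were also compared between cell cycle phases. Comparing the 351 LNCaP cells called G2/M with the 1320 called G1, likewise a comparison added after the data were seen, 4 of the 20 members were at least 2-fold lower in G2/M (0.667% of the 300 other genes) and 2 at least 2-fold higher (6.67%). The lower ones were ADAMTS1 (10.3 against 47.9 CPM), SLC45A3 (13.1 against 45.1 CPM), TMPRSS2 (38.8 against 125 CPM) and PMEPA1 (27.9 against 57.4 CPM). KLK2 plus KLK3 were also lower in the G2/M cells of LNCaP, at 513 against 1217 CPM (log2 difference -1.25, -1.35 to -1.15). The kallikreins were lower in those of LNCaP-ENZ48 as well (-1.02, -1.24 to -0.80) but not in those of RES-B (0.07, -0.15 to 0.29). RES-A held too few kallikrein UMIs to compare. The higher members in LNCaP were NCAPD3 (95.2 against 20.6 CPM) and CENPN (103 against 40.3 CPM). Neither is in the gene lists that set the phases. In the other libraries 1 member each was at least 2-fold lower in G2/M, ADAMTS1 in LNCaP-ENZ48 (1.00% of other genes) and RES-B (0.667%) and C1orf116 in RES-A (0.667%). CENPN and NCAPD3 were at least 2-fold higher in all of them, with MPHOSPH9 as well in LNCaP-ENZ48 and RES-B (3, 2 and 3 members in LNCaP-ENZ48, RES-A and RES-B, against 7.67%, 7.00% and 6.33% of other genes). Within the G1 cells of LNCaP alone the summed members still correlated with the kallikreins at 0.171, and 2 of the 190 pairs exceeded 0.1.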

How the data were processed

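Human LNCaP-derived cells were profiled in 4 single-cell libraries, 1 per group, with groups taken from the sample titles. The authors made the deposited UMI counts per gene and barcode with Cell Ranger 3.0.2 on GRCh38. Reads that map to several genes are not counted by it, which lowers genes with near copies. Cells were filtered with the study's limits per library: 3000 to 7000 genes and 16000 to 50000 UMIs in LNCaP, 1500 to 5000 genes and 5000 to 25000 UMIs in the others, and mitochondrial shares under 15% (LNCaP, LNCaP-ENZ48), 17% (RES-A) or 20% (RES-B). The higher lower limits select deeper LNCaP cells. Doublets were not removed.

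UMIs were summed over kept cells and given as CPM of the library total with exact Poisson 95% intervals. Ratios have exact conditional binomial (Clopper-Pearson) 95% intervals, and counts of 0 were set to 3 UMIs. Intervals and limits for counts of 0 cover counting error only. With 1 library per group there is no replicate error, no test and no p-value. The ratio script was tested on simulated data. Counts of members at least 2-fold apart are set beside the same count over all 9585 genes whose mean reached 5 CPM. For cell-level values each cell was thinned to 5000 UMIs, without losing any cell, and phases were called with scanpy 1.11.5 from S and G2/M gene lists. Gene positions come from GENCODE on GRCh38, matched by gene ID. Python 3.11.15, numpy 2.4.6 and scipy 1.17.1 were used, with edgeR 4.0.16 and DESeq2 1.42.0 (R 4.3.3) for alternative scaling factors only. Other alternatives were other cell filters, G1 cells, thinned cells, minimum levels, unthinned counts and Spearman correlation.

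The rule for the members uses no measured level, only prior knowledge of androgen-induced genes, but the members and the other gene lists were chosen with earlier results of these data known. All members are named by role. A member's level is given in each library where it had at least 50 CPM in at least 1 library, or a ratio of at least 4-fold with at least 5 CPM in either library. Levels of other members given in full (such as FKBP5, C1orf116, GNMT, AZGP1, NCAPD3 and TRPM8), and the comparisons by kallikrein UMIs and by phase, were chosen after values were seen.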

Additional observations from a re-analysis of the deposited data

Results flagged for a closer look

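For 3 members RES-A and RES-B lay on opposite sides of LNCaP, with counting intervals that did not hold 0. ACSL3 had a log2 ratio to LNCaP of 0.34 in RES-A but -0.24 in RES-B. GNMT stood at -0.70 in RES-A and 0.83 in RES-B. NCAPD3 stood at 0.14 in RES-A and -0.68 in RES-B. Each line is 1 library, so the difference between the lines was not tested.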

How the results depend on the processing

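Of 194 summary values under alternative settings, 173 stayed close to those reported, 19 moved and 2 were counted as opposite in sign. Correlations smaller as reported than the half-width of their approximate 95% interval were not counted as opposite, and some of these also changed sign. The summed members in LNCaP-ENZ48, for example, correlated with the kallikreins at -0.0038 with 2000 UMIs per cell (0.0151 as reported). Of 1269 ratios of single members, 1102 stayed close and 167 moved, and 0 of the called ratios took the opposite sign. In cells called G1, 2 members (1 as reported) were at least 2-fold higher in RES-A than in LNCaP-ENZ48. With cells thinned to 5000 UMIs, 1 member (GNMT; 0 as reported) was at least 2-fold higher in RES-B than in LNCaP. The median of RES-B against LNCaP-ENZ48 was -0.47 under TMM scaling and -0.47 under median-of-ratios scaling, against -0.27. A minimum of 50 CPM left 5 members (ACSL3, SORD, MED28, CENPN and TPD52). Then 0 were at least 2-fold lower than LNCaP in LNCaP-ENZ48, 1 in RES-B and 1 in RES-A, 0 in RES-B against RES-A and 0 in either resistant line against LNCaP-ENZ48. In these last 3 comparisons 0 were higher. Shares of all genes were not counted under the alternative settings, so these counts describe the members only. The medians against LNCaP were then -0.53 in LNCaP-ENZ48, -0.32 in RES-B and -0.20 in RES-A, those of RES-A against LNCaP-ENZ48 -0.10 and of RES-B against RES-A -0.0945 (0.10 as reported), from fewer and more abundant members. Without thinning, the summed members correlated with the kallikreins at 0.284 in LNCaP and 0.0790 in RES-B. With 2000 UMIs per cell the value in RES-A was 0.0019 (-0.0379 as reported), from a handful of cells with a kallikrein UMI. No paired analysis was possible because each group is 1 library, and none could be left out. Members under about 5 CPM rest on few UMIs and are limited by depth.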
